A study of Homo sapiens with 24 samples.

Results

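The syntaxin genes described here were the 10 whose symbols, STX1A, STX2, STX3, STX4, STX5, STX6, STX7, STX8, STX12 and STX16, were looked up in a gene count table of 48162 entries. All 10 were found, on 11 entries, because STX16 is listed under 2 identifiers. The second STX16 entry (ENSG00000270044) had 0 counts in all 24 libraries and was not tested. The other 10 entries had between 210 and 2194 counts in every library, and all of them passed the filter on low counts in each comparison.

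Syntaxins are membrane-anchored SNARE proteins. One syntaxin helix coils together with helices of other SNAREs, including that of a SNARE on the opposing membrane. This coiling drives the fusion of a vesicle with its target. Different syntaxins sit on different membranes, so that each step of secretion, endocytosis and Golgi traffic uses its own set, and Sec1/Munc18 proteins and tethering complexes control when the set assembles. STX3 serves fusion at the apical plasma membrane of epithelial cells.

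The libraries came from PPC1, an established human prostate cancer cell line, in 4 conditions of 6 libraries each. Untreated parental cells (UT) were compared with polyploid giant cancer cells (PGCC), which are the large cells that the line forms after radiation, and each population was also treated with LCL521, a pro-drug that inhibits acid ceramidase, the lysosomal enzyme encoded by ASAH1. PGCC were made with 8 Gy on day 2, harvested on day 5 and held back on a 20 micron strainer, so the group is defined by radiation and size and not by a sorted marker. LCL521 was given at 5 µM for 5 h (UT_LCL and PGCC_LCL). The experiment was done 6 independent times, and same-numbered libraries of the 4 conditions belong to one run. All samples came from a single line, and parental cells did not receive radiation.

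The libraries held between 14835246 and 19906601 counts. The detection floor used here, 3 counts, corresponded to between 0.151 and 0.202 per 1000000 of these unscaled totals. Levels are given in CPM (counts per 1000000 after TMM scaling of the library sizes). Of 9 prostate and epithelial markers, 4 (KRT8, KRT18, CDH1 and HOXB13) were above that floor in every library, with a summed level for all 9 between 692 and 1224 CPM, and KLK3 and FOLH1 had 0 counts in every library. Of 6 markers of leukocytes, endothelium and fibroblasts in the table, 2 (COL1A1 and PTPRC) were above it in every library, with a summed level for all 6 between 7.77 and 15.1. ASAH1 mRNA fell by 0.40 on the log2 scale in PGCC (edgeR quasi-likelihood test, adjusted p = 0.000596). Over 14532 genes, the libraries of replicates 4 and 5 differed from those of replicates 1, 2, 3 and 6 by a median size of 0.236 on the log2 scale, averaged over the 4 conditions, and results that rest on them are given with and without them.

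To compare the members with each other, levels were divided by the gene length listed in the table, giving CPM per kilobase. STX1A, which serves regulated exocytosis and is best known from neurons and insulin-secreting cells, stood first in all conditions. Its level was 44.1 ± 6.38 in UT, 46.9 ± 9.11 in UT_LCL, 46.9 ± 4.13 in PGCC and 49.3 ± 6.90 in PGCC_LCL (SD, n = 6 each). These values did not overlap with those of the next gene in any condition. STX1A overlaps WBSCR22 on the opposite strand over positions 73113536 to 73119491 of chromosome 7 (hg19), and WBSCR22 had a mean of 6361.8 counts per library. Whether the counting used strand is not given in the sources used here, so the part of WBSCR22 reads in the STX1A value was not tested. STX5, which fuses vesicles with the Golgi, and STX4, a SNARE of the basolateral plasma membrane, followed in UT with 24.9 and 23.7 CPM per kilobase, and their libraries overlapped. STX3 stood last in UT at 6.91 ± 0.93 and in PGCC at 7.76, and it stood at place 8 in UT_LCL with 8.91 and at place 7 in PGCC_LCL with 10.1. Its neighbours in that order overlapped with it. Of the 9 neighbouring pairs in each order, 6 overlapped in UT and 7 in each of the other conditions. Scaling each library to a fixed sum over genes after the division by length (TPM) gave the same gene at all 10 places in each condition.

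**Figure D1:**
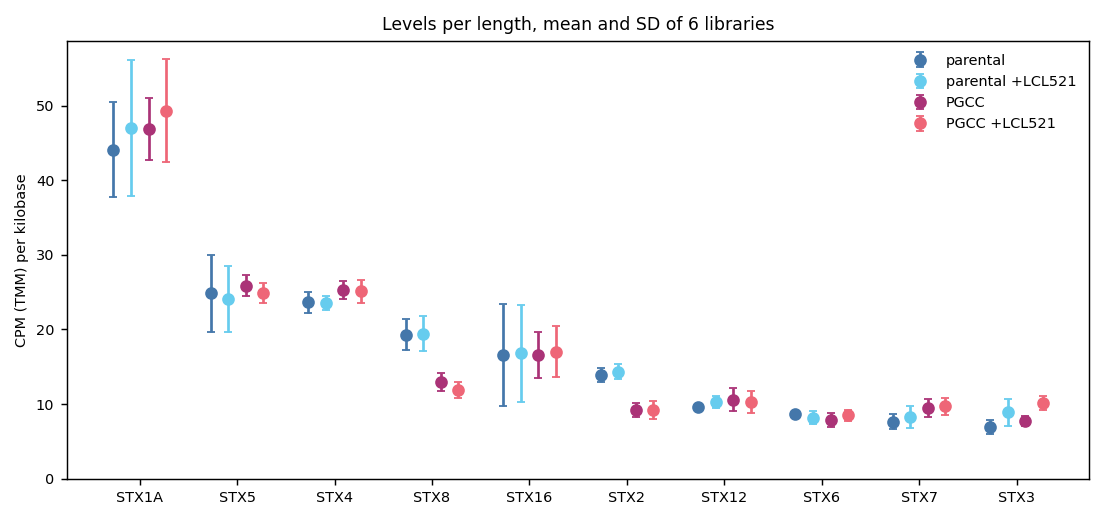
Each dot is the mean of 6 libraries and each bar the SD, in CPM per kilobase of listed gene length, for the 10 syntaxin genes ordered by their level in UT. STX1A stands apart at 44.1 or above in all 4 conditions, STX2 and STX8 step down from parental cells to PGCC, and STX3, last in UT at 6.91, is higher in both LCL521 conditions.

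Stretches upstream of member genes are printed to show which letters accompany the genes that did and did not respond to LCL521, with the motifs searched for on both strands. They are RefSeq windows of the GRCh38.p14 build, from 250 bases before to 50 after a gene's start. The motifs were the E-box CACGTG, the CLEAR core TCACGTGA, which contains an E-box and is the site known for TFEB and related lysosomal regulators, the sterol regulatory element TCACNCCAC and the cAMP response element TGACGTCA. Motif letters are in capitals. The 250 bases before the STX3 start, on the plus strand, lie at chr11:59755126-59755375, and the STX4 (plus strand), STX6 (minus strand) and STX12 (plus strand) stretches lie at chr16:31033284-31033313, chr1:181022998-181023027 and chr1:27773014-27773043.
STX3: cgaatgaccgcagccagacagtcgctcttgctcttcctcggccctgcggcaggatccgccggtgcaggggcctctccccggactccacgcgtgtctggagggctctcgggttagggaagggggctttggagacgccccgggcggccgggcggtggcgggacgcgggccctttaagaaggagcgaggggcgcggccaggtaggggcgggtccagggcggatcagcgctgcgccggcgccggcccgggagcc
STX4: gaccgggctggTCACGTGAcgcggtggggg
STX6: atatgccctggTCACGTGAgcggggtgcgg
STX12: ccccaactaggTGACGTCAtctccccgccc

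None of the 4 motifs was in the STX3 window. All 10 genes matched, with 14 windows between them. The CLEAR core stood in 1 of 3 windows of STX4 and in the window of STX6, at -196 and -146 from the start, and in 0.98% of all 35116 windows. An E-box outside a CLEAR core was found for STX2 at -166, and an E-box of either kind was in 7.26% of all windows. The cAMP response element was in the STX12 window at -194 and in 1.85% of all windows. No member had the sterol element, which 1.13% of all windows held. A match is a description of letters and not of a bound site.

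The treatment with LCL521 asked whether 5 h of the inhibitor changes transcripts in either population. STX3 was the member whose level differed between untreated and treated PGCC by more than the spread within the groups. STX3 (ENSG00000166900, chromosome 11 from 59480929 to 59573354 on the plus strand, hg19) had 43.5, 49.6 and 55.5 CPM at the lowest, median and highest library of PGCC. In PGCC_LCL the same figures were 58.3, 62.6 and 72.6. Every treated library was therefore above every untreated one, which held for 0.0919% of the 14151 genes tested (13 genes higher with LCL521). The share expected by chance was not computed. Same-numbered libraries of PGCC and PGCC_LCL share a run, and their deviations from the group means were correlated (median 0.53 over 6 pairs). A random division of the libraries, which ignores the runs, therefore cannot give that share. The means were 49.4 ± 4.27 and 64.5 ± 6.12 CPM (SD, n = 6 each), a fold change of 1.31 (95% interval 1.16 to 1.47). The log2 difference within same-numbered pairs was between 0.19 and 0.54 and above 0 in 6 of 6 pairs, a pattern that 3.83% of genes shared. A two-sided exact permutation test of the unpaired libraries gave p = 0.00216, the smallest that 6 against 6 libraries allow. STX3 was chosen with earlier results of these same libraries known. This p and the fits below therefore describe these libraries and are no independent support.

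Across all genes, the edgeR quasi-likelihood test put the LCL521 effect on STX3 in PGCC at 0.39 ± 0.08 (log2, SE) with an adjusted p of 0.715, and 0 of 10 members were called against 0.00707% of all genes tested (1 of 14151). Blocking on the replicate number gave 0.39 ± 0.05 (adjusted p = 2.18e-05, edgeR), STX3 was at place 7 of all genes by p, and 1 of 10 members was called against 1.65% of all genes. Without the block, which leaves the shared runs out of the fit, 218 genes had an unadjusted p under 0.05. That is less than 0.05 of the 14151 genes, the share expected with no effect on any gene. The adjusted p of 0.715 (edgeR) therefore does not show that an effect is absent. Pairs 4 and 5 averaged 0.34 and the other 4 pairs 0.40, and the blocked call held in those 4 alone (adjusted p = 0.000245, edgeR).

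In parental cells STX3 had 38.3, 41.9 and 52.5 CPM at the lowest, median and highest library of UT. The corresponding values of UT_LCL were 45.5, 52.5 and 72.5. Here the groups overlapped, with the libraries of replicates 4 and 5 highest in both. The means were 44.0 ± 5.93 and 56.7 ± 11.4 (SD, n = 6 each), a fold change of 1.29 (95% interval 1.06 to 1.59). All 6 pairs were higher with LCL521, by 0.10 to 0.53 on the log2 scale, as in 3.32% of genes. The exact permutation tests, two-sided, gave p = 0.0281 for the unpaired libraries and p = 0.0312 over the sign changes of the pairs, the smallest that 64 sign changes allow.

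For parental cells the edgeR estimate was 0.37 ± 0.14 (log2, SE) with an adjusted p of 1.00, with 0 of 10 members and 0 of 13277 genes called, where 71 genes had an unadjusted p under 0.05. Those 71 genes are again less than 0.05 of the genes tested. With the replicate block the estimate was 0.36 ± 0.06 (adjusted p = 0.00713, edgeR), and STX3 was at place 16 by p. In that fit 1 of 10 members was called, against 0.866% of all genes. DESeq2 without a block was not past the threshold in parental cells and called STX3 in PGCC (adjusted p = 0.0419). Leaving out replicate 5 from the blocked fit gave an adjusted p of 0.0503 (edgeR) in parental cells. Pairs 4 and 5 averaged 0.47 and the other 4 pairs 0.30. The blocked call in parental cells was lost in replicates 1, 2, 3 and 6 alone (log2 fold change 0.31, adjusted p = 0.169, edgeR).

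The STX3 gene overlaps 6 other genes of the table, of which the pseudogene FABP5P7 on the opposite strand (positions 59548786 to 59549195) had a mean of 225.5 counts and the others 1.5 or fewer. For STX3 the LCL521 effects in the 2 populations differed by 0.02 (log2, PGCC minus parental, 95% interval -0.30 to 0.34), or by 0.03 with pairs blocked within each population (-0.12 to 0.18). This difference was not past the threshold, and its intervals leave room for a difference in either direction.

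**Figure D2:**
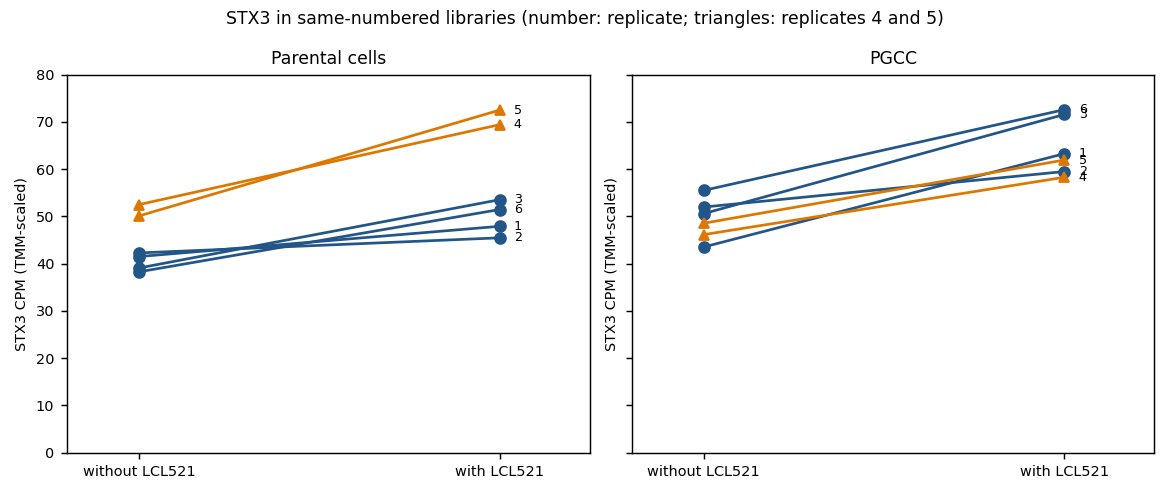
Lines join same-numbered libraries without and with LCL521, with STX3 in CPM on the vertical axis, parental cells on the left and PGCC on the right. All 12 lines go up. In parental cells replicates 4 and 5 (triangles) sit above the others at both ends, and in PGCC they lie among the lower ones.

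No other member was called under LCL521 in either population, with or without the block. With the block, the log2 fold changes of the 9 others were between -0.12 for STX8 and 0.11 for STX6 in PGCC, and between -0.09 for STX6 and 0.12 for STX7 in parental cells. STX12, a SNARE of recycling endosomes, was higher with LCL521 in 6 of 6 parental pairs by 0.02 to 0.23, with a log2 fold change of 0.11 (adjusted p = 0.417 with the block, edgeR), and in 2 of 6 pairs in PGCC. STX7, which fuses late endosomes and lysosomes, was at 0.12 in parental cells (adjusted p = 0.357 with the block, edgeR). STX6, which acts between endosomes and the trans-Golgi network, had the largest difference between the populations, 0.20 on the log2 scale (95% interval -0.05 to 0.45, adjusted p = 1.00, edgeR). Blocked within each population it was 0.21 (0.04 to 0.38, unadjusted p = 0.0199, adjusted p = 1.00 in the edgeR fit). None of the 10 members and none of 14555 genes was called in that test of the difference by edgeR. There, 60 genes had an unadjusted p under 0.05 without a block and 561 with pairs blocked. Both counts are less than 0.05 of the genes tested.

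**Figure D3:**
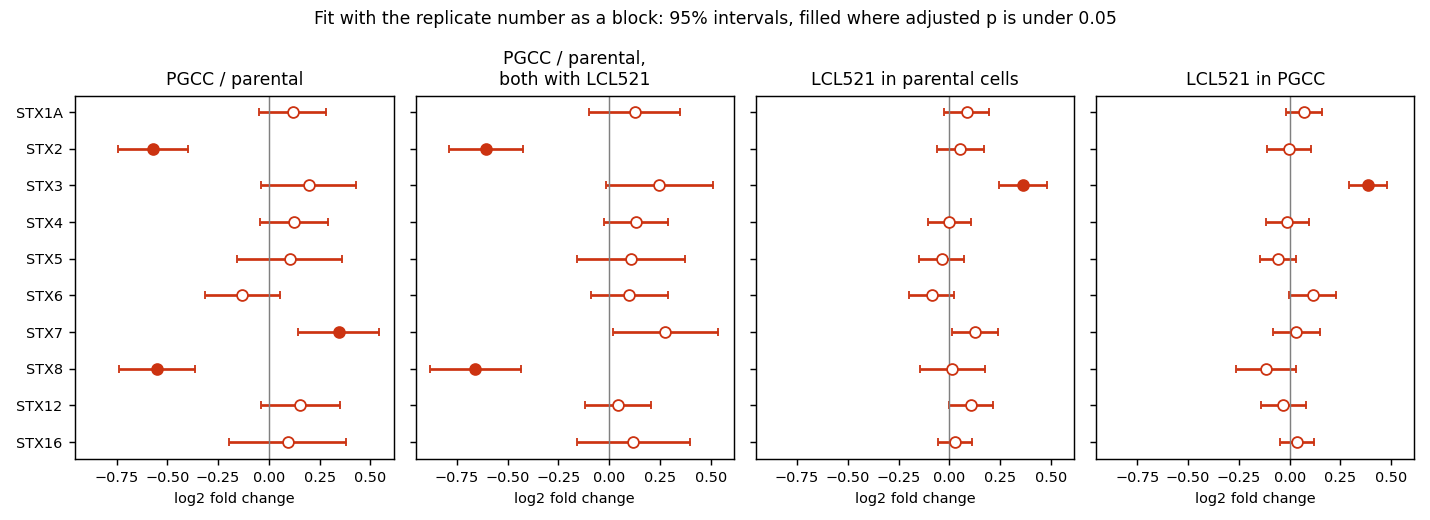
Log2 fold changes of the 10 genes in the 4 comparisons, from edgeR with pairs blocked, with 95% intervals and filled dots where the adjusted p was under 0.05. STX2 and STX8 lie near -0.6 in both comparisons of PGCC with parental cells, and STX3 is the filled dot in both LCL521 panels, at 0.36 and 0.39.

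PGCC and parental cells were compared to see which transcripts accompany the irradiated giant state. STX2 and STX8 fell by about the same proportion in PGCC, and STX7 rose. In all, 3 of 10 members were called (1 higher, 2 lower), against 47.4% of the 13812 genes tested (23.1% higher, 24.3% lower). With the block the same 3 were called, against 56.2% of genes. With library totals in place of TMM scaling 6 members were called (4 higher, 2 lower), against 45.9% of genes. Regardless of sign, the members had a median log2 fold change of 0.146 and all genes tested one of 0.374. These values are relative to all counted RNA, and in bulk libraries fewer cells of a type and less RNA per cell cannot be told apart.

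STX2, a plasma membrane syntaxin also known from cytokinesis (ENSG00000111450, chromosome 12 from 131274145 to 131323811, minus strand), had 42.7, 45.6 and 52.0 CPM at the lowest, median and highest library of UT. In PGCC these were 27.7, 29.4 and 35.2. The groups did not overlap, which held in this direction for 13.6% of genes, and all 6 pairs were lower, as in 26.8% of genes. STX2 was 0.675 times its UT level (95% interval 0.590 to 0.772), a log2 fold change of -0.57 ± 0.09 (SE, adjusted p = 0.000165, edgeR).

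STX8, a late endosomal SNARE (ENSG00000170310, chromosome 17 from 9153789 to 9479908, minus strand), had 19.6, 24.9 and 26.2 CPM in UT at the lowest, median and highest library. In PGCC it had 14.9, 15.6 and 18.5. Again every PGCC library was below every parental one and 6 of 6 pairs were lower. The level was 0.682 times that of UT, a log2 fold change of -0.55 ± 0.10 (SE, adjusted p = 0.000511, edgeR).

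STX7, the usual partner of STX8 on late endosomes (ENSG00000079950, chromosome 6 from 132779054 to 132834337, minus strand), moved the other way. Its lowest, median and highest libraries were at 23.7, 27.1 and 34.6 CPM in UT and at 29.1, 34.0 and 41.5 in PGCC. The groups overlapped, and 5 of 6 pairs were higher. The fold change was 1.27 (95% interval 1.08 to 1.49) and the log2 fold change 0.34 ± 0.11 (SE, adjusted p = 0.0187, edgeR). With the block the log2 fold change was 0.34 (95% interval 0.14 to 0.54, adjusted p = 0.00919, edgeR). The call without the block was lost without replicate 1 (adjusted p = 0.0821, edgeR) and without replicate 5 (0.0534). It was also lost in replicates 1, 2, 3 and 6 alone (0.0604) and with no filter on low counts (0.0573).

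**Figure D4:**
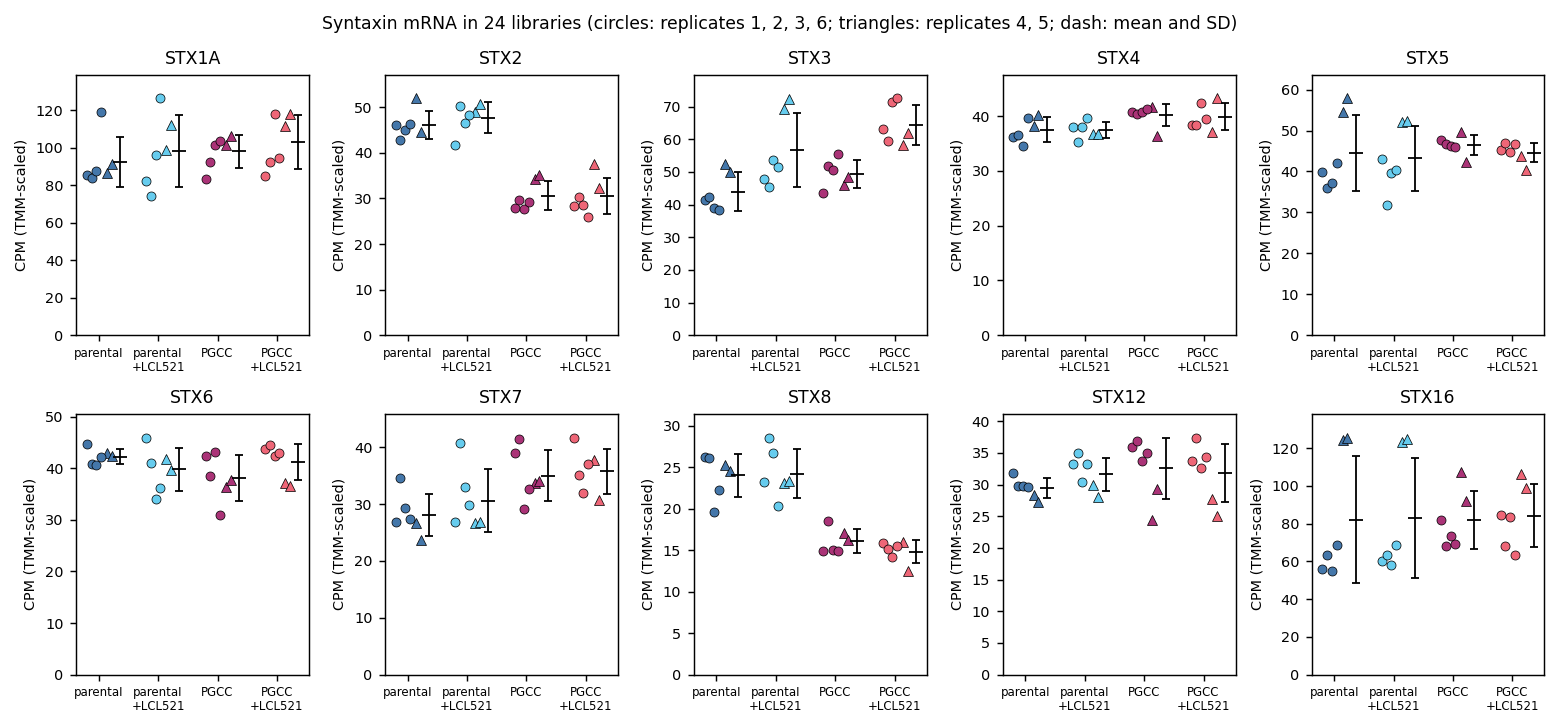
CPM of the 10 genes in all 24 libraries, 1 point per library, with mean and SD beside each group. Triangles are replicates 4 and 5. STX2 and STX8 in PGCC lie below every parental library, and in STX16 the triangles lie above the circles in every condition.

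With LCL521 in both arms, STX2 and STX8 fell again, and they were the 2 members called, against 48.9% of 13818 genes tested (23.9% lower). STX2 went from 41.7, 48.6 and 50.8 CPM in UT_LCL to 26.0, 29.5 and 37.6 in PGCC_LCL at the lowest, median and highest library. STX8 went from 20.3, 23.3 and 28.6 to 12.4, 15.3 and 15.9. Neither gene's groups overlapped, as for 14.6% of genes in this direction, and both genes were lower in 6 of 6 pairs, as were 27.0% of genes. On the log2 scale STX2 changed by -0.60 ± 0.10 (SE, adjusted p = 0.000199, edgeR) and STX8 by -0.66 ± 0.10 (SE, adjusted p = 0.000105, edgeR). With the block these same 2 members were called, against 56.3% of all genes. STX7 was 0.27 higher on the log2 scale without passing the threshold (adjusted p = 0.0735, edgeR). These 2 comparisons share no library, but their libraries come from the same 6 runs.

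For the members not called in PGCC against UT, the log2 fold changes ran from -0.12 for STX6 to 0.19 for STX3 (adjusted p = 0.255 and 0.141, edgeR). STX16, a SNARE of transport from endosomes to the trans-Golgi network, had the widest interval, from -0.46 to 0.50 around 0.02. Its spread followed the replicate number. In UT, STX16 had a mean of 60.6 CPM in replicates 1, 2, 3 and 6 and 124.9 in replicates 4 and 5, and in PGCC it had 73.1 and 99.7. The log2 difference between these sets of replicates was 1.05 in UT, 0.99 in UT_LCL, 0.45 in PGCC and 0.46 in PGCC_LCL. The sets did not overlap in any of the 4 conditions for STX16, and the same held for STX12. The share of all genes without such overlap was not computed. A mean difference as large as that of STX16, 0.74, was found in 8.74% of 14532 genes. STX5 differed in the parental conditions, by 0.53 and 0.44, and by -0.02 and -0.12 in PGCC without and with LCL521, and STX3 by 0.35 and 0.52 against -0.08 and -0.15. STX12 was lower in replicates 4 and 5 in all 4 conditions, on average by -0.27, a size that 44.4% of genes reached.

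Without the block, leaving out replicates 4 and 5 changed the call in PGCC against UT for 5 members. STX7 lost its call, as it also did without replicate 1, and 4 others gained one. In replicates 1, 2, 3 and 6 alone, STX3, STX5, STX12 and STX16 rose, with log2 fold changes of 0.35, 0.29, 0.25 and 0.30 (adjusted p = 0.00626, 0.0108, 0.0215 and 0.0183, edgeR). STX2 and STX8 fell there too, so that 6 of 10 members were called against 54.6% of 13809 genes. The block added STX7 to these (7 of 10, against 64.3% of genes). In replicates 4 and 5 the mean paired differences of STX3, STX5, STX12 and STX16 were -0.12, -0.29, -0.05 and -0.33 over 2 pairs and were not tested. Leaving out these 2 pairs raises the estimates of these 4 genes by construction. With LCL521 in both arms, 5 of 10 members were called in replicates 1, 2, 3 and 6 against 52.5% of genes (57.5% with the block), and STX3, STX5 and STX16 were the 3 that rose. STX2 and STX8 were lower in both sets of replicates in both comparisons. The libraries of replicates 4 and 5 carry no label that sets them apart other than their number. The split rests on expression in these same data, so the calls within it are a description.

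**Figure D5:**
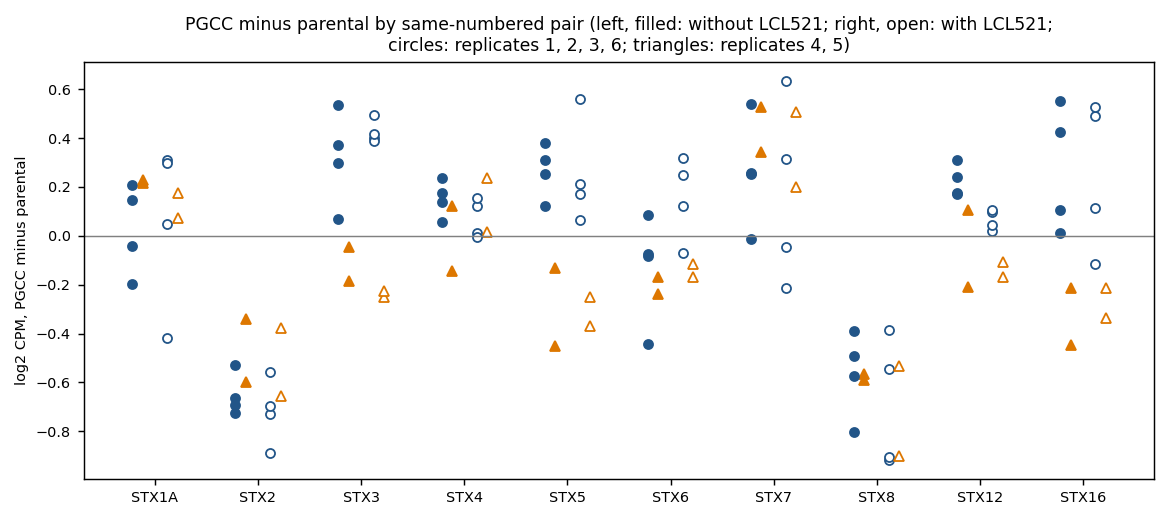
Log2 CPM of PGCC minus parental cells for each same-numbered pair, with filled symbols without LCL521 and open symbols with it, circles for replicates 1, 2, 3 and 6 and triangles for replicates 4 and 5. For STX3, STX5 and STX16 the triangles lie below 0. All 12 points of STX2 and all 12 of STX8 lie below 0.

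The genes that work with the syntaxins were described from 3 lists. Of 29 SNARE partners, 25 could be tested in PGCC against UT and 11 were called (44.0%, 5 higher and 6 lower), near the 47.4% of all genes (23.1% higher, 24.3% lower). STX11, a syntaxin of secretory granules in blood cells, had the largest rise, from 0.589 ± 0.0954 to 3.95 ± 1.23 CPM (SD, n = 6 each, log2 fold change 2.76, adjusted p = 9.27e-07, edgeR). It had low counts, from 8 to 12 per library in UT and from 50 to 106 in PGCC. VAMP1 followed with 0.99 (adjusted p = 0.0216, edgeR). The leukocyte marker PTPRC rose beside STX11, from 1.18 ± 1.03 to 3.07 ± 0.599 CPM (SD, n = 6 each, log2 fold change 1.39, adjusted p = 0.0164, edgeR), with overlapping groups and means of 0.525 and 3.24 in replicates 1, 2, 3 and 6. CD3E, a T cell marker, had at most 1 count in any library. The part of other cells in the STX11 value was not tested. VAMP3, the vesicle SNARE of recycling endosomes, fell from 71.6 ± 5.82 to 46.3 ± 1.57 CPM (SD, n = 6 each, log2 fold change -0.60, adjusted p = 1.16e-05, edgeR), and VAMP4 of the trans-Golgi network had -0.59 (adjusted p = 0.00462, edgeR). VTI1B, which joins STX7 and STX8 in the late endosomal complex and was picked after its value was seen, fell by 0.58 on the log2 scale (adjusted p = 8.53e-05, edgeR). The vesicle SNAREs of that complex, VAMP7 and VAMP8, had 0.18 and 0.22 and were not called (adjusted p = 0.0644 and 0.623, edgeR).

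Among partners known for STX3, picked outside the rule for named genes, SNAP23 and SNAP47 were at 30.5 and 81.2 CPM in UT and at 29.3 and 79.7 in PGCC (adjusted p = 0.762 and 0.983, edgeR). VAMP8 was at 0.708 CPM in UT and SNAP25 was at 0 counts in all libraries. Of 18 tested regulators, 10 were called (55.6%, 4 higher and 6 lower), beside the 47.4% of all genes. STXBP5L, a tomosyn that binds plasma membrane SNAREs, and UNC13D, a priming factor of granule secretion, had the largest rises at 0.96 and 0.92. Both had low counts, with means for STXBP5L of 1.08 CPM in UT and 2.08 in PGCC. UNC13D had 0.466 and 0.877 CPM, from 5 to 13 and 11 to 29 counts per library, and its groups overlapped. TRIM16 and VPS33A, the Sec1/Munc18 subunit of endosomal tethers, had the largest falls at -1.13 and -0.73. Of 19 tethering subunits, 9 were called (47.4%), the same share as over all genes, of which 24.3% were lower. All 9 were lower, led by VPS54 of the GARP complex at -0.85 and EXOC2 of the exocyst at -0.59 (adjusted p = 7.90e-06 and 0.000617, edgeR). No gene of the 3 lists was called under LCL521 in either population, with or without the block.

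The 5 genes whose log2 profile over the 24 libraries was most like that of STX3, by the root mean square difference after centring each gene, were FLCN at 0.162, FNIP1 at 0.165, RRAGC at 0.172, AP5Z1 at 0.176 and PCF11 at 0.182, of 14532 genes. STX3 itself had a root mean square of 0.272 around its own mean. FLCN encodes folliculin, FNIP1 its binding partner and RRAGC a Rag GTPase, all of which act on the lysosome in nutrient sensing, and AP5Z1 encodes a subunit of the AP-5 adaptor of late endosomes. Without the block none of the 5 was called under LCL521 in either population, with adjusted p of 0.301 for RRAGC in PGCC and 1.00 in every other case (edgeR). With the replicate block, LCL521 raised RRAGC by 0.38 on the log2 scale in PGCC (adjusted p = 0.000271, edgeR) and by 0.38 in parental cells (adjusted p = 0.0170, edgeR). FNIP1 rose by 0.33 and 0.31 (adjusted p = 0.00113 and 0.0309, edgeR). AP5Z1 rose by 0.28 in PGCC (adjusted p = 0.00154, edgeR) and had 0.20 in parental cells (0.0555), and FLCN had 0.21 (0.0646) and 0.14 (0.488). PCF11, a factor of transcript 3' end formation, had 0.06 and 0.10 (0.610 and 0.411, edgeR). These genes were picked for their likeness to STX3 over the same libraries, so their LCL521 values are a description.

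FNIP1 and RRAGC are shown because an E-box was found in their windows and none in that of STX3. The FNIP1 stretch (minus strand) lies at chr5:131797176-131797203 and the RRAGC stretch (minus strand) at chr1:38859868-38859895 of GRCh38.p14, with the E-box in capitals.
FNIP1: cccgcccctgcCACGTGacgggacccgc
RRAGC: ggtgattccggCACGTGacggggcacca
The FNIP1 window held 2 E-boxes, at -175 (shown) and -94. The AP5Z1 window held 2 as well, at -37 and -5, the latter inside a CLEAR core at -6. No FLCN or PCF11 window held one, and 7.26% of all windows did.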

How the data were processed

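RNA sequencing was done on 24 libraries, and the deposited table held raw counts per gene. Per the labels the authors' processing notes name CASAVA, STAR, HTSeq, DESeq2 and the hg19 build. The strand setting and the annotation release are not given in the sources used here. The authors did not normalize the deposited counts.

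Counts were tested with edgeR 4.0.16 (R 4.3.3, limma 3.58.1), with TMM scaling, filterByExpr (minimum count 10, minimum total 15), the quasi-likelihood F-test, and Benjamini-Hochberg adjustment over all genes tested, at a threshold of 0.05. Each comparison used its own 12 libraries without a block. The LCL521 by population term used all 24. DESeq2 1.42.0, limma-voom, other filters and scalings, leaving out replicates and the replicate block were alternatives. The procedure was tested on simulated data. Same-numbered libraries share a run, per the series' design text, and the correlation of their deviations from the group means was between 0.171 and 0.814 over the 4 comparisons, so the numbers were taken as pairs. CPM used TMM-scaled library sizes, and log2 values a prior count of 2.

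No 2 libraries of a condition agreed within sampling noise (60 pairs, chi-square per degree of freedom 4.69 or more). Genes named by rule were all members, ASAH1, the 2 largest called rises and falls of each list in PGCC against UT, list genes called under LCL521, and the 5 nearest profiles to STX3. SNAP23, SNAP47, SNAP25, VAMP7, VAMP8, VTI1B and the marker genes were named outside it. The members and lists were chosen with earlier results of these data known. The precision is set by the 6 runs, and floors cover counting error only. Some withheld items are not reported here.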

Additional observations from a re-analysis of the deposited data

Results flagged for a closer look

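In 2 of the 40 sets of 6 libraries (10 genes in 4 conditions) a single library lay far from the other 5 by Dixon's ratio of the gap to the range, which chance gives in about 1 of 20. STX1A had 119.2 CPM in UT replicate 6, where the median of the group was 87.2 and the ratio was 0.749. STX4 had 36.4 CPM in PGCC replicate 5, where the median was 40.8 and the ratio was 0.759.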

How the results depend on the processing

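STX2 and STX8 remained called and lower in PGCC in both comparisons under every alternative run. The count of called members in PGCC against UT was 3 and became 6 with library totals in place of TMM (4 higher, among them STX3, STX4 and STX12), 6 in replicates 1, 2, 3 and 6 alone, 7 there with the replicate block, and 2 to 4 when 1 replicate was left out. With LCL521 in both arms it was 2 and became 5 in replicates 1, 2, 3 and 6, both without and with the block, and 2 to 3 when 1 replicate was left out.

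Under LCL521 the count was 0 and became 1, STX3, in parental cells with the replicate block, with the block and a gene length correction, and with DESeq2 and the block, and 0 to 1 when replicates were left out in turn under the block, where it was 0 without replicate 5. It was also 0 in replicates 1, 2, 3 and 6 with the block (STX3 adjusted p = 0.169). In PGCC it became 1 with DESeq2, with the block, with the block and length correction, in replicates 1, 2, 3 and 6 with the block, and with DESeq2 and the block, and it was 1 each time a replicate was left out under the block. Without the block it was 0 each time a replicate was left out. STX3 in parental cells was then at 0.36 with the block, 0.33 with the length correction (adjusted p = 0.00174), 0.36 in DESeq2 with the block (9.59e-05), and, under the block, 0.39, 0.41, 0.34, 0.35, 0.33 and 0.34 without replicates 1 to 6 in turn. In PGCC STX3 was at 0.38 in DESeq2, 0.39 with the block, 0.36 with the length correction (1.82e-06), 0.40 in replicates 1, 2, 3 and 6 with the block (0.000245), 0.38 in DESeq2 with the block (1.79e-08) and, under the block, 0.36, 0.43, 0.37, 0.40, 0.39 and 0.40 without replicates 1 to 6 in turn. Without the block, leaving out a replicate gave 0.33 to 0.41 in parental cells and 0.36 to 0.43 in PGCC. The alternatives that put the block into DESeq2 or leave out replicates under the block were chosen after seeing the data. The set of replicates 1, 2, 3 and 6 also rests on expression in these data.

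The sign changes concerned values near 0 that were not called in the main fits or with the block, and their cause was not tested. Some of these genes were called higher under other alternatives. In PGCC against UT these were STX4 with library totals, and STX5 and STX16 in replicates 1, 2, 3 and 6. With LCL521 in both arms, STX5 and STX16 were called higher in those replicates as well. With the block and length correction, PGCC against UT gave -0.016 for STX1A, -0.026 for STX4, -0.036 for STX5 and -0.024 for STX16, and with LCL521 in both arms -0.027 for STX1A, -0.033 for STX4, -0.049 for STX5, -0.037 for STX6, -0.097 for STX12 and -0.017 for STX16. STX16 in PGCC against UT was -0.00042 with no filter and -0.073 to 0.15 with a replicate left out, and -0.025 to 0.15 with LCL521 in both arms, where STX5 was -0.0068 to 0.17. STX4 in parental cells under LCL521 was 0.0023 with limma-voom, 0.024 with library totals, 0.00090 with at least 10 counts in every library, 6.5e-05 with the block, 0.0034 with the length correction, 0.050 in replicates 1, 2, 3 and 6 with or without the block, and -0.029 to 0.027 with a replicate left out. STX5 there was 0.0046 in replicates 1, 2, 3 and 6, and STX8 was -0.068 to 0.049 with a replicate left out. In PGCC under LCL521, STX2 was 0.0044 with library totals and -0.036 to 0.032 with a replicate left out, STX4 was -0.061 to 0.022 and STX12 -0.064 to 0.0016. The difference between populations for STX3 was -0.00098 with library totals and -0.034 to 0.067 with a replicate left out, so it has no direction.

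The low-count SNARE genes STX11 (in parental cells), STX19 and VAMP8 and the low-count regulators STXBP5L and UNC13D are limited by depth. An opposite-strand share of STX1A and STX3 reads could not be separated from the counts.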
